A study of Mus musculus with 8 samples.

Results

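The transcript levels of 10 genes of the Hippo pathway and its nuclear output were followed in ventricles of E10.5 mouse embryos with a cardiomyocyte-specific deletion of Pkn2, which encodes a serine/threonine kinase. The genes were taken by symbol, with no threshold on a measured value: the coactivators Yap1 and Wwtr1, the transcription factors Tead1, Tead2, Tead3 and Tead4, the kinases Lats1 and Lats2, the angiomotin family member Amotl2 and the target gene Ankrd1. They are 10 of the 55291 gene symbols counted. The 4 cKO libraries came from Pkn2 fl/fl embryos with the XMLC2-Cre transgene, and the 4 control libraries from their Cre-negative Pkn2 fl/fl littermates, so that floxed alleles were shared by both groups. The floxed line was kept on a C57BL/6N background, and the strain label reads C57BL/6. RNA came from ventricular tissue of E10.5 embryos, and the replicates are described as biological.

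XMLC2-Cre recombines in cardiomyocytes, while the sequenced tissue also holds endocardial, cushion, epicardial and blood cells, in which Pkn2 was not the intended target. In such bulk samples, fewer cells of a type and less RNA per cell cannot be told apart. Cardiomyocyte markers were abundant in every library, with a summed level of 12 markers between 40921 and 43596 TPM (the length-scaled abundance that the authors deposited). Libraries held 47559845 to 56660938 counts. The levels below are CPM (counts relative to library sizes that the TMM method had scaled), which serve to compare 1 gene between libraries, and TPM is used wherever different genes are compared.

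In the Hippo pathway, the kinases encoded by Stk3 and Stk4 activate LATS1 and LATS2, which phosphorylate YAP and TAZ (the product of Wwtr1) and so keep them in the cytoplasm. When the pathway is quiet, YAP and TAZ enter the nucleus, bind TEAD proteins and switch on genes such as Ccn1, Ccn2 and Ankrd1. Actomyosin tension acts on the same step, angiomotin proteins hold YAP at junctions and on actin, and in the fetal heart YAP with TEAD1 is known for driving cardiomyocyte proliferation. Most of this control works through phosphorylation and location of the proteins, which transcript counts do not record.

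TEAD proteins bind the MCAT element, a motif named for its presence in muscle gene promoters. It was searched as CATTCC and as its reverse complement GGAATG, on both strands, in RefSeq promoter windows of GRCm38.p6 that run from 250 bases before to 50 bases after an annotated start. Of the 10 genes, 8 had a window, and 6 of these (75.0%) held the motif in at least 1 window, against 4481 of 27025 genes (16.6%). Some genes have several windows, and the count takes any of them. The 250 bases before the start are shown for Ankrd1 and Amotl2, which were both highest in cKO replicate 4, and for Lats2, the only gene of the 10 whose CPM values did not overlap between groups. Capitals mark the MCAT motif.
Ankrd1, chr19:36119845-36120094, minus strand: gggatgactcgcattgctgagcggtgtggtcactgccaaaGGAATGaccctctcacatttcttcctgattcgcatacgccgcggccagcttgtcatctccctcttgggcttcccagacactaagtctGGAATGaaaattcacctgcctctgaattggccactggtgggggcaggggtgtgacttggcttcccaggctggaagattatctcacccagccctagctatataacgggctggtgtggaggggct
Amotl2, chr9:102717554-102717803, plus strand: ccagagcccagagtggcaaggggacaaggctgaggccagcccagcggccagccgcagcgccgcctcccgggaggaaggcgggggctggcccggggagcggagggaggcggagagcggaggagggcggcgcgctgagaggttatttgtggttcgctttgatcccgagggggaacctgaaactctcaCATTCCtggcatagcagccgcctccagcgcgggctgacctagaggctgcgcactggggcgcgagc
Lats2, chr14:57746124-57746373, minus strand: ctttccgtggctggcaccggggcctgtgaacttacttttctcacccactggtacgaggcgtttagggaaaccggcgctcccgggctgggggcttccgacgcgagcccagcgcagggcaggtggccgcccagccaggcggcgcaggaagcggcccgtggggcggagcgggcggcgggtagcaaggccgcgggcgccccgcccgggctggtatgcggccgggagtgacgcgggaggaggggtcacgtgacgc
The Ankrd1 window held GGAATG beginning 210 and 123 bases before the start. That of Amotl2 held CATTCC beginning 65 bases before the start. In Lats2 these letters were absent from the printed stretch, and GGAATG began at base 5 after the start. For Ankrd1 and Amotl2 the printed bases lie within the gene span given in the deposited table, because the RefSeq start differs from the outermost start of that table. Elsewhere, Yap1 held GGAATG beginning 141 bases before its start, Wwtr1 and Tead3 held the motif in at least 1 of their windows, and Tead2 and Lats1 held none. A match of 6 letters is a description of sequence and no evidence of binding. Among the 12 cardiomyocyte markers, 6 had the motif in a window.

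Pkn2 was read first as a check of the labels. It was at 83.1, 77.6, 79.6 and 84.3 CPM in cKO replicates 1 to 4 and at 133, 139, 152 and 153 CPM in control replicates 1 to 4. All cKO libraries were below all controls, and the log2 fold change was −0.83, with a standard error (SE) of 0.060 and an adjusted p of 7.67e-06 in the quasi-likelihood test of edgeR, adjusted by Benjamini-Hochberg over 26820 genes, which was used for every gene below. Fold changes are cKO against control, so that negative values are lower in cKO.

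None of the 10 Hippo pathway genes passed the threshold of an adjusted p of 0.05. Of all genes tested, 0.858% passed, 0.515% as higher and 0.343% as lower in cKO. The 2 lowest p-values belonged to Lats2 and Tead4, both with a lower mean in cKO. These were also the 2 of 10 genes with an unadjusted p under 0.05, where 12.8% of all genes had one. The groups did not overlap in 1 of the 10, Lats2, against 6.91% of all genes. The point estimates were higher in cKO for 4 genes and lower for 6, and their median on the log2 scale was −0.05. Over all genes tested 49.8% were higher. All 10 had a mean of at least 10 CPM, as had 9858 of the genes tested. Of those 9858, 163 passed, 1959 had an unadjusted p under 0.05, 1092 did not overlap between groups and 40.8% were higher. The count depended on the tool: limma-voom called 0 of the 10, while DESeq2 called 2, Tead4 (adjusted p = 0.0217) and Lats2 (adjusted p = 0.0200), both lower in cKO. DESeq2 also called 867 genes in all, where edgeR called 230.

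**Figure D1:**
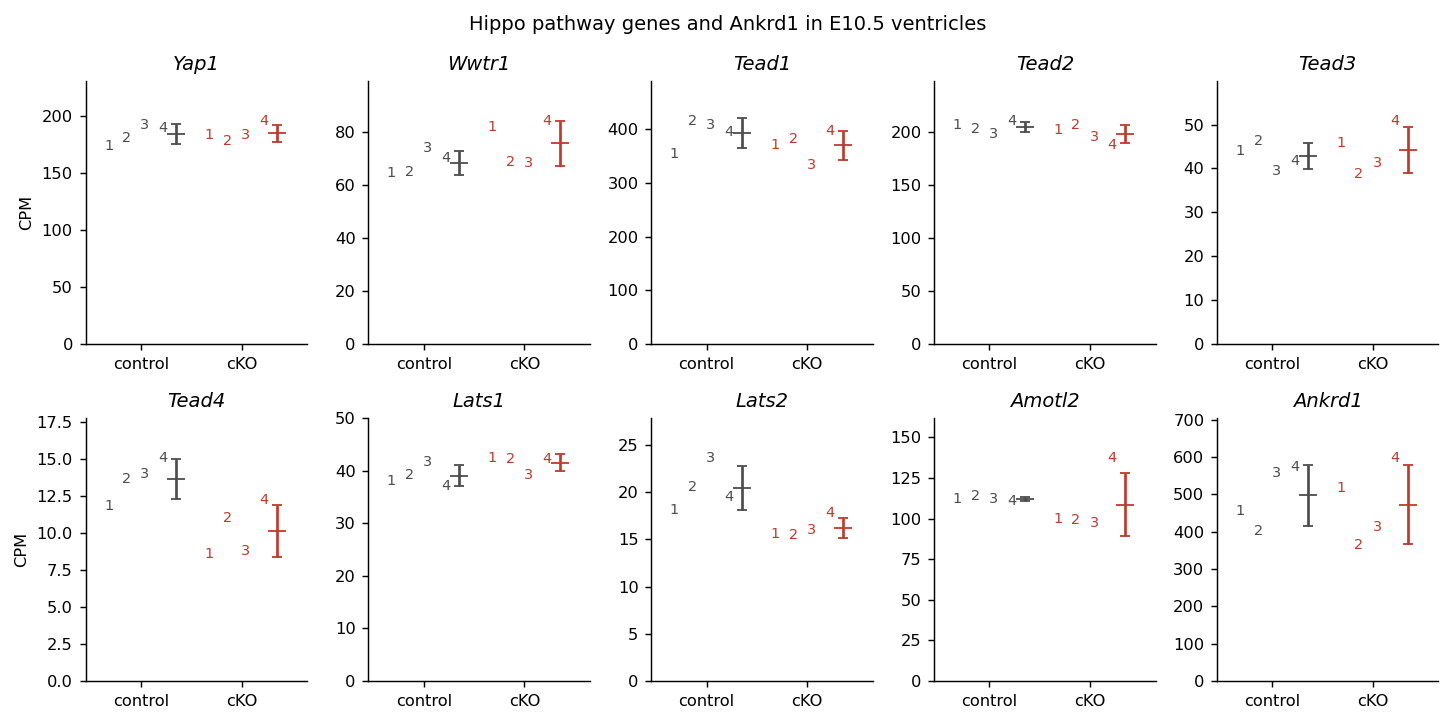
Levels of the 10 genes in CPM (linear axes from 0), with each library drawn as its replicate number and the mean ± SD (n = 4) beside each group. Tead4 and Lats2 sit lower in cKO (red) than in control (grey) libraries, with an overlap for Tead4 between cKO 4 and control 1, and Amotl2 and Ankrd1 are highest in cKO replicate 4.

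Yap1 (ENSMUSG00000053110, chromosome 9 of GRCm38, 7931999 to 8004596, minus strand) encodes YAP, a coactivator without a DNA-binding domain of its own. It was at 183, 178, 183 and 195 CPM in cKO replicates 1 to 4 and at 173, 181, 192 and 189 CPM in controls. The groups overlapped, the lowest and highest libraries being control 1 and cKO 4. The log2 fold change was 0.01 (95% interval −0.11 to 0.12, adjusted p = 0.981), and the coefficient of variation was 4.01% in cKO and 4.67% in control libraries.

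Wwtr1 (ENSMUSG00000027803, chromosome 3, 57455649 to 57575910, minus strand) encodes TAZ, the paralog of YAP. Its levels were 81.9, 68.6, 68.3 and 84.1 CPM in cKO and 64.6, 64.9, 74.1 and 70.1 CPM in control replicates. Replicates 1 and 4 of cKO were above all controls, and the other cKO libraries lay within the control range. The log2 fold change of 0.15 (95% interval −0.01 to 0.31, adjusted p = 0.448) was the highest of the 10 genes, and it did not pass. Relative to each other, the coactivators were counted at 2.23, 2.59, 2.68 and 2.32 Yap1 counts per Wwtr1 count in cKO and 2.68, 2.79, 2.59 and 2.70 in controls, so that the same cKO replicates 1 and 4 had the lowest ratios and the groups overlapped.

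The 4 Tead genes encode the DNA-binding partners of YAP and TAZ. In TPM, Tead2 (mean ± SD over 8 libraries, 126 ± 8.58) was the most abundant of them, before Tead1 (90.9 ± 14.7), Tead3 (31.1 ± 3.98) and Tead4 (7.43 ± 1.32). Their summed level was 233 to 281 TPM in cKO and 235 to 280 TPM in control libraries.

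Tead1 (ENSMUSG00000055320, chromosome 7, 112679318 to 112906807, plus strand) is the family member best known from heart muscle. It was at 370, 381, 333 and 397 CPM in cKO and 354, 415, 409 and 395 CPM in control replicates, with overlapping groups and the lowest value in cKO 3. This gave a log2 fold change of −0.09 (95% interval −0.23 to 0.06, adjusted p = 0.678). Its direction turned on the TPM scale, to 0.18 on log2(TPM + 1), with 98.0, 103, 83.0 and 98.7 TPM in cKO and 67.6, 110, 92.2 and 74.3 TPM in controls. The number of counts per TPM, relative to the gene's mean, ran from 0.880 in cKO 2 to 1.21 in control 4, a range of 1.37-fold that exceeded that of 97.6% of 12303 genes, whose median range was 1.04-fold. The cause was not tested, and the level of Tead1 relative to the other genes is therefore less certain than theirs.

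Tead2 (ENSMUSG00000030796, chromosome 7, 45215753 to 45233644, plus strand), a member prominent in early embryos, was at 202, 206, 195 and 187 CPM in cKO and 206, 203, 198 and 210 CPM in control replicates. The lowest level, in cKO 4, was close to the others, and the log2 fold change was −0.05 (95% interval −0.16 to 0.06, adjusted p = 0.798). Tead3 (ENSMUSG00000002249, chromosome 17, 28331671 to 28350817, minus strand) was at 45.7, 38.8, 41.3 and 50.8 CPM in cKO and 44.1, 46.2, 39.5 and 41.6 CPM in controls. The extremes of Tead3 both lay in cKO, replicate 2 lowest and replicate 4 highest, and its log2 fold change was 0.04 (95% interval −0.13 to 0.21, adjusted p = 0.899).

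Tead4 (ENSMUSG00000030353, chromosome 6, 128224288 to 128300813, minus strand), known from trophectoderm and from skeletal muscle precursors, was the scarcest of the 10 genes. It was at 8.59, 11.0, 8.77 and 12.2 CPM in cKO and 11.9, 13.7, 14.0 and 15.1 CPM in control replicates. Replicates 1 to 3 of cKO were below all controls, and cKO 4 was above control 1 alone. The cKO mean was 74.3% of the control mean, with a log2 fold change of −0.43 (SE 0.12, 95% interval −0.68 to −0.18, adjusted p = 0.107). The unadjusted interval thus lies below 0, while the gene did not pass after adjustment over all genes. Without cKO replicate 4 the adjusted p was 0.0387, and with no filter on low counts it was 0.0251. Without any other single library it ran from 0.118 to 0.314, and with limma on TPM from 0.294 to 0.442.

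As a share of the summed Tead TPM, Tead4 took 2.12%, 2.54%, 2.41% and 2.91% in cKO and 3.11%, 3.08%, 3.36% and 3.83% in control replicates. The shares did not overlap between groups, while the TPM of Tead4 itself did, with cKO 4 (7.69 TPM) above control 1 (7.29 TPM). The shares of the other 3 overlapped: Tead1 took 36.8% ± 0.868 in cKO and 34.0% ± 4.78 in controls (SD, n = 4 each), Tead2 48.0% ± 2.45 and 50.9% ± 4.22, and Tead3 12.7% ± 2.04 and 11.8% ± 0.660. Since Tead1 is part of the sum, its uncertain TPM, lowest in control 1 (67.6 TPM), enters these shares. The separation of the Tead4 shares rests on it: with Tead1 left out of the sum, cKO 4 is above control 1.

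**Figure D2:**
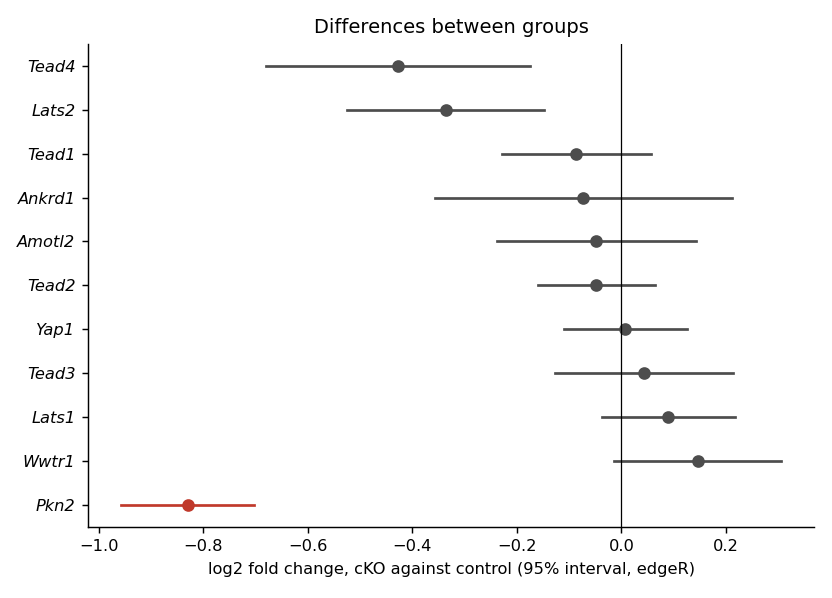
Log2 fold changes of cKO against control with 95% intervals from edgeR (linear axis, unadjusted intervals), for Pkn2 in red and the 10 Hippo pathway genes in grey. The intervals of Tead4 (−0.68 to −0.18) and Lats2 (−0.53 to −0.15) lie below 0 and the other 8 include 0.

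LATS1 and LATS2 are the kinases that phosphorylate YAP and TAZ, and Lats2 is itself a target gene of YAP. Lats1 (ENSMUSG00000040021, chromosome 10, 7681214 to 7716460, plus strand) was at 42.4, 42.3, 39.1 and 42.2 CPM in cKO and 38.1, 39.2, 41.7 and 37.1 CPM in control replicates. In cKO, replicates 1, 2 and 4 were above all controls, and replicate 3 stood apart from them, at the level of control 2. Lats1 had a log2 fold change of 0.09 (95% interval −0.04 to 0.22, adjusted p = 0.606).

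Lats2 (ENSMUSG00000021959, chromosome 14, 57689662 to 57746123, minus strand) was at 15.6, 15.5, 16.0 and 17.8 CPM in cKO and 18.1, 20.6, 23.7 and 19.6 CPM in control replicates. All cKO libraries were below all controls, the nearest pair being cKO 4 and control 1. The cKO mean was 79.2% of the control mean, with a log2 fold change of −0.34 (SE 0.089, 95% interval −0.53 to −0.15, adjusted p = 0.0941), which placed it at rank 480 of the 26820 genes by p. The separation was small enough to be lost on the TPM scale, where cKO 4 (17.4 TPM) was above control 1 (16.0 TPM). With no filter on low counts the adjusted p was 0.0314. With single libraries left out it ran from 0.0724 to 0.270, and with limma on TPM from 0.298 to 0.436.

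Set against each other, there were 0.367, 0.367, 0.408 and 0.422 counts of Lats2 per count of Lats1 in cKO and 0.475, 0.525, 0.568 and 0.527 in control replicates. The group means were 0.391 ± 0.0284 and 0.524 ± 0.0377 (SD, n = 4 each), and the groups did not overlap. The same held for the ratio of TPM, which ran from 1.31 to 1.5 in cKO and from 1.73 to 2.03 in controls. In TPM, then, Lats2 was higher than Lats1 in all 8 libraries, while in counts it was lower. A gene model on the same strand, Gm49361, overlaps Lats2 and held 0 to 4 counts. Whether it affects the counts or TPM of Lats2 was not tested. No test was run on these ratios.

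**Figure D3:**
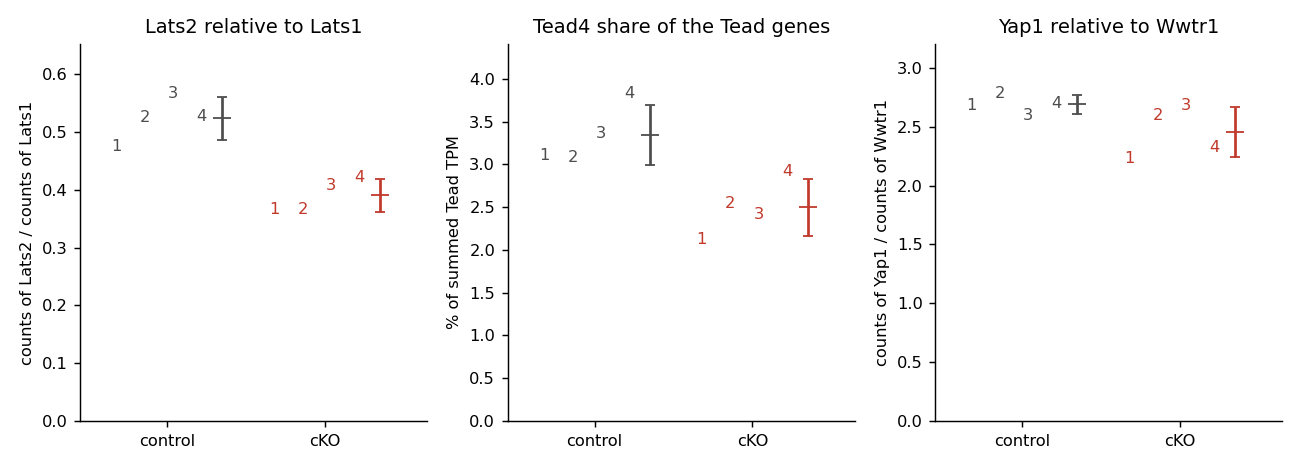
Ratio of Lats2 to Lats1 counts, the Tead4 share of the summed Tead TPM (%) and the ratio of Yap1 to Wwtr1 counts in each library (replicate numbers; mean ± SD, n = 4 per group; linear axes from 0). The first pair of quantities does not overlap between control (grey) and cKO (red), and the Yap1 to Wwtr1 ratio does. The separation of the Tead4 share rests on the uncertain TPM of Tead1 in the sum, and the TPM of Tead4 itself overlaps.

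Amotl2 (ENSMUSG00000032531, chromosome 9, 102716802 to 102733418, plus strand) encodes an angiomotin family protein that binds YAP and is also transcribed under its control. It was at 100.0, 98.9, 97.4 and 137 CPM in cKO replicates 1 to 4 and at 112, 114, 112 and 111 CPM in controls. Controls were almost level, replicates 1 to 3 of cKO were below all of them, and cKO 4 was above all of them. Over the 4 libraries the log2 fold change was −0.05 (95% interval −0.24 to 0.14, adjusted p = 0.900), and without cKO replicate 4 it was −0.18 (adjusted p = 0.138). The 3 genes whose log2 CPM across the 8 libraries, each relative to its own mean, was most like that of Amotl2 were Dap, Slc39a3 and Lonp1. Their root mean square differences from Amotl2 were 0.0395, 0.0515 and 0.0533 (log2), where Amotl2 itself varied by 0.150, and in each cKO 4 was the highest library. They were picked as the nearest of 14301 genes, so that the small differences and the high cKO 4 follow from the choice.

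Ankrd1 (ENSMUSG00000024803, chromosome 19, 36111965 to 36120099, minus strand) encodes a cardiac ankyrin repeat protein of the sarcomere and nucleus that is induced by stretch and by YAP. It was the most abundant of the 10 genes, at 420 ± 75.0 TPM over the 8 libraries. In CPM it was at 518, 364, 412 and 598 in cKO and at 455, 402, 558 and 574 in control replicates. The highest and the lowest library were both cKO, replicates 4 and 2, so that the control range lay within that of cKO. Its spread, the widest after that of Tead4, was 1.64-fold from lowest to highest, with a coefficient of variation of 22.3% in cKO and 16.6% in controls. The log2 fold change was −0.07 (SE 0.13, 95% interval −0.36 to 0.21, adjusted p = 0.899), an interval that leaves room for differences of either sign at this spread. The most similar genes across libraries were Gm48088, 1700109H08Rik and Gm26944, with root mean square differences of 0.0843, 0.0998 and 0.111 where Ankrd1 itself varied by 0.252 (log2). All 3 carry gene model or clone names and were measured near 1 CPM. They too were picked for their likeness, from which the small differences follow.

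In order of TPM, Ankrd1 was followed by Tead2, Tead1, Yap1 (84.3 ± 3.99), Amotl2 (45.2 ± 5.56), Tead3, Wwtr1 (27.3 ± 3.05), Lats2 (16.7 ± 2.23), Lats1 (10.2 ± 0.900) and Tead4 (SD over 8 libraries). Neighbours whose ranges over the libraries overlapped were Tead1 and Yap1, with Tead1 higher in 6 of 8 libraries, Tead3 and Wwtr1, with Tead3 higher in 8 of 8, and Lats1 and Tead4, with Lats1 higher in 7 of 8. For counts without a stated strand setting, genes on the opposite strand could add reads, and the largest of them, Cd37 opposite Tead2, held 28 to 96 counts where Tead2 held at least 9410.

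**Figure D4:**
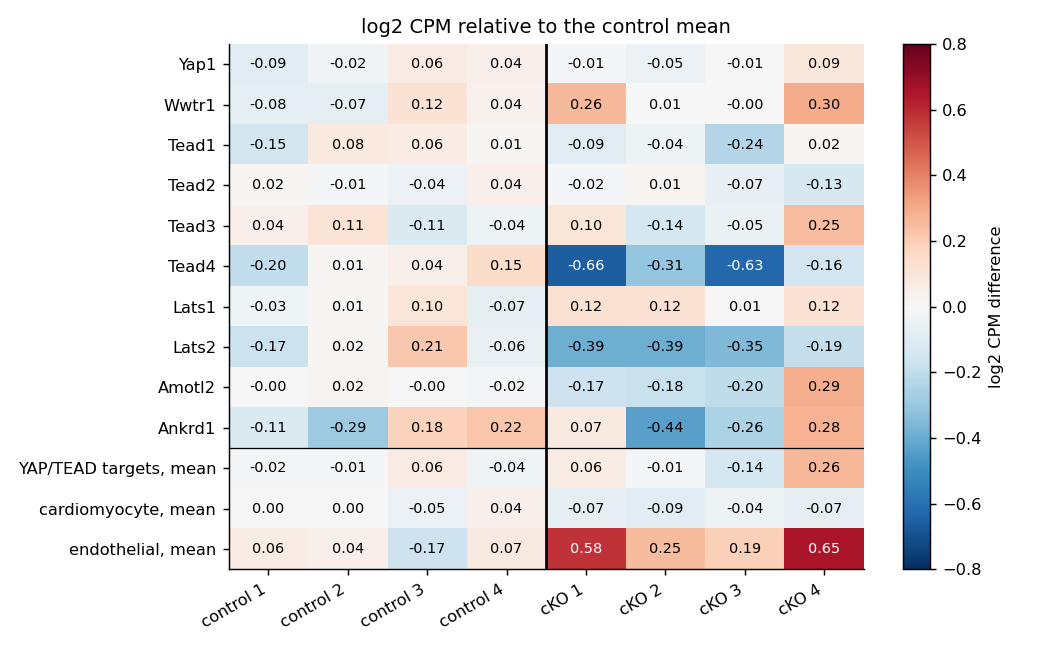
Log2 CPM of each gene minus its control mean (colour and printed value), by library, with the mean over the YAP and TEAD targets, the cardiomyocyte markers and the endothelial markers below. In the Tead4 and Lats2 rows all 4 cKO libraries are below 0, and cKO 4 is the highest library for Yap1, Amotl2, Ankrd1, Tead3, Wwtr1 and the mean over the targets.

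Some differences between libraries crossed the groups, and others went with them. Replicate 4 of cKO was the highest of the 8 libraries for Yap1, Wwtr1, Tead3, Amotl2 and Ankrd1, and the mean over the 18 tested YAP and TEAD targets was also highest there, at 0.26 (log2, relative to the control mean), against −0.14, −0.01 and 0.06 in the other cKO libraries. The markers of endothelial and endocardial cells, 12 genes of which 5 passed the edgeR test as higher in cKO and none as lower (3 with limma-voom, 10 with DESeq2, 9 with no filter on low counts and 8 with the replicate block, all higher), had a summed level of 916 to 1221 TPM in cKO and 714 to 866 TPM in controls, without overlap and with the maximum again in cKO 4. Macrophage markers had higher point estimates in cKO in 9 of 9 genes, with a median of 2.24 (log2) and an unadjusted p under 0.05 in each. Of them, 2 were called by edgeR, 0 by limma-voom, 5 by DESeq2, 9 with no filter on low counts and 3 with the replicate block. Their levels were low and summed to 7.35 to 33.3 TPM in cKO and 2.15 to 7.70 TPM in controls. Of the 12 cardiomyocyte markers, 0 passed the edgeR or limma-voom threshold. In edgeR 4 had an unadjusted p under 0.05, against 12.8% of all genes tested. Their point estimates were lower in cKO for 8 and higher for 4. DESeq2 and the fit with no filter on low counts each called 2, Nkx2-5 and Pln, both lower, and with the replicate block Pln alone was called, as lower. The markers summed to 41312 to 42725 TPM in cKO and 40921 to 43596 TPM in controls, a sum to which Actc1 alone gave a mean of 14608 TPM. No marker of these lists was at 0 in all libraries. The part of these other cells in the levels of the Hippo pathway genes was not tested.

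Upstream of LATS, 25 genes of the kinase cassette and its scaffolds were tested (MST, MAP4K and TAO kinases, the adaptors Sav1, Mob1a and Mob1b, the scaffolds Nf2, Wwc1 and Wwc2, and STRIPAK subunits). With edgeR 0 passed and with limma-voom 0, while DESeq2 called Map4k1 as higher and Wwc2 as lower. An unadjusted p under 0.05 in edgeR was found for 9, against 12.8% of all genes tested. Of the 9858 genes with a mean of at least 10 CPM, 1959 had one. With no filter on low counts, where 878 genes passed in all, 4 were called, all higher: Map4k1, Map4k2, Tnik and Taok3. The point estimates were higher in cKO for 15 and lower for 10, with a median of 0.02 (log2). The most abundant were Map4k4 (110 TPM), a kinase that can activate LATS in parallel to MST, with a log2 fold change of 0.19 (adjusted p = 0.199), Nf2 (61.4 TPM), which encodes Merlin, with −0.06 (adjusted p = 0.750), and the STRIPAK subunit Strn3 (60.6 TPM), with −0.05 (adjusted p = 0.811).

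Among 21 polarity and junction genes that feed into the pathway, edgeR and limma-voom called Llgl2 alone, as lower in cKO. In edgeR 5 had an unadjusted p under 0.05, against 12.8% of all genes tested. DESeq2 and the fit with no filter on low counts each called 3, Llgl2 and Crb2 as lower and Dchs1 as higher, and with the replicate block Llgl2 and Dchs1 were called. Llgl2, a Lethal giant larvae homologue of the basolateral polarity complex, was at 38.7, 45.2, 39.5 and 42.0 CPM in cKO and 53.3, 55.7, 48.5 and 55.4 CPM in control replicates. All cKO libraries were below all controls, with a log2 fold change of −0.36 (SE 0.067, adjusted p = 0.0177). The call was lost without cKO replicate 1 (adjusted p = 0.0723), control replicate 1 (0.0673), control replicate 2 (0.0603) or control replicate 4 (0.0778). The most abundant genes of the list were the adherens junction gene Ctnna1 (281 TPM, log2 fold change 0.03, adjusted p = 0.884), the tight junction gene Tjp1 (68.8 TPM, 0.11, adjusted p = 0.554) and Llgl1 (41.1 TPM, −0.01, adjusted p = 0.971). Dchs1 (0.42, adjusted p = 0.0583) and Crb2 (−0.30, adjusted p = 0.0732), an atypical cadherin and an apical polarity gene named after their values were seen, came next to Llgl2 in the edgeR test, without passing there.

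Of 23 genes acting on YAP or TEAD directly, 0 passed with edgeR, limma-voom or DESeq2. In edgeR 4 had an unadjusted p under 0.05, against 12.8% of all genes tested. The point estimates were higher for 8 and lower for 15, with a median of −0.05. The list holds the other angiomotins, the TEAD cofactors of the Vgll family, the ubiquitin ligases and the 14-3-3 proteins that retain phosphorylated YAP in the cytoplasm. Its most abundant genes were the 14-3-3 genes Ywhae (715 TPM, log2 fold change −0.13, adjusted p = 0.400), Ywhaz (293 TPM, −0.04, adjusted p = 0.863) and Ywhah (271 TPM, −0.08, adjusted p = 0.603). Amot, the founding angiomotin, was named after its values were seen. It was at 75.0 to 89.9 CPM in cKO and 69.7 to 74.7 CPM in controls (0.18, adjusted p = 0.221). Its groups did not overlap, which held for 1 of the 23 genes, against 6.91% of all genes.

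Downstream, 19 genes known as YAP and TEAD targets were listed, and 18 had enough counts to be tested, all but Foxf2. With edgeR 0 passed and with limma-voom 0, and DESeq2 called F3 as lower. In edgeR 4 had an unadjusted p under 0.05, against 12.8% of all genes tested. With no filter on low counts F3 was called as lower and Igfbp3 as higher. The point estimates were higher in cKO for 12 and lower for 6, with a median of 0.07. The summed level was 276 to 391 TPM in cKO and 303 to 314 TPM in controls, so that cKO libraries lay on both sides of a narrow control range.

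Ccn1 and Ccn2 encode secreted matricellular proteins and are the targets most used as readouts of YAP. Ccn1 was at 31.0, 36.4, 31.5 and 48.4 CPM in cKO and 53.6, 39.9, 41.6 and 43.6 CPM in control replicates. Replicates 1 to 3 of cKO were below all controls and cKO 4 was above 3 of them, with a log2 fold change of −0.28 (95% interval −0.54 to −0.02, adjusted p = 0.356). Without cKO replicate 4 the log2 fold change of Ccn1 was −0.43, with an adjusted p of 0.0393. Ccn1 was nearest to 0 without control replicate 1 (−0.17), cKO replicate 1 (−0.20) or cKO replicate 3 (−0.21), with adjusted p-values of 0.501 to 0.691. Ccn2 was at 34.7, 18.7, 23.4 and 48.7 CPM in cKO and 36.0, 31.6, 38.2 and 44.7 CPM in controls. As with Ankrd1, cKO replicates 2 and 4 of Ccn2 were the lowest and the highest of all libraries, and the log2 fold change was −0.26 (95% interval −0.69 to 0.18, adjusted p = 0.690). It was −0.54 without cKO replicate 4 (adjusted p = 0.133) and nearer to 0 without cKO replicate 2 (−0.0668), cKO replicate 3 (−0.14) or control replicate 4 (−0.16), with adjusted p-values of 0.843 to 0.935.

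The most abundant genes of the target list were Ccdc80 (58.2 TPM, log2 fold change 0.12, adjusted p = 0.539), Axl (42.5 TPM, 0.13, adjusted p = 0.364) and Ccn2 (35.4 TPM). Igfbp3, a secreted binding protein of insulin-like growth factors chosen here after its values were seen, had the highest point estimate. It was at 36.9, 28.9, 19.8 and 70.1 CPM in cKO and 18.4, 18.2, 14.8 and 20.1 CPM in control replicates, with a log2 fold change of 1.13 (SE 0.26, adjusted p = 0.0559). It was called with no filter on low counts and with the replicate block, as higher in each. Replicate 4 of cKO was the highest, and cKO 3 lay within the control range.

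Of the other muscle ankyrin repeat genes, Ankrd23 was at 7.38 TPM with a log2 fold change of 0.04 (adjusted p = 0.978), whose sign turned on the TPM scale, and Ankrd2 was at 0.0545 TPM, too low to compare. In a list of 10 genes that answer cardiac stress and load, edgeR and limma-voom called Xirp2 alone, as higher in cKO. In edgeR 5 had an unadjusted p under 0.05, against 12.8% of all genes tested. DESeq2 called 3, Xirp2 and Acta1 as higher and Fhl1 as lower, and with no filter on low counts Xirp2 and Acta1 were called. Xirp2, an actin-binding gene of the intercalated disc, was low, with 2.61 ± 0.394 CPM in the 4 cKO libraries and 1.04 ± 0.193 CPM in the 4 controls (SD), with a log2 fold change of 1.32 (SE 0.20, adjusted p = 0.00520). The most abundant were the myosin gene Myh7 (3188 TPM, −0.02, adjusted p = 0.959), the natriuretic peptide gene Nppa (2947 TPM, 0.20, adjusted p = 0.351) and the Z-disc gene Csrp3 (1193 TPM, 0.15, adjusted p = 0.328), and none of these passed.

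**Figure D5:**
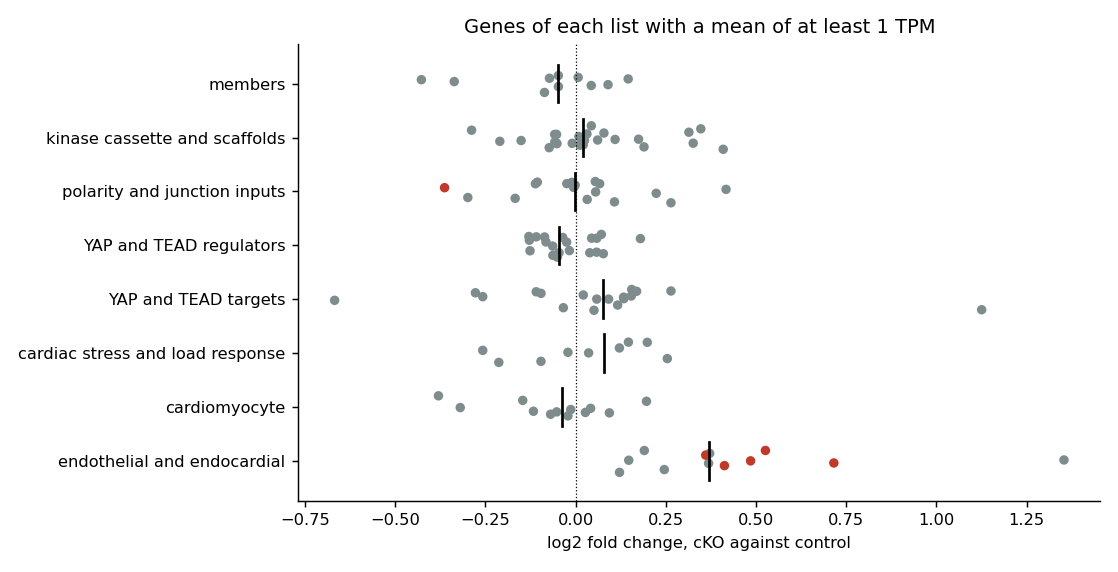
Log2 fold change of cKO against control for each gene of a list with a mean of at least 1 TPM (points; red past an adjusted p of 0.05), with a black bar at the median of all tested genes of the list and a dotted line at 0. The medians of the pathway lists lie between −0.05 and 0.07 and that of the endothelial markers at 0.37. Llgl2 is the only red point outside the endothelial list, since Xirp2 is below 1 TPM.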

How the data were processed

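RNA was measured in 8 libraries, 4 cKO and 4 control. Counts per gene symbol were deposited by the authors without normalization. A second table deposited by the authors holds TPM, scaled by gene length and library, with Ensembl identifiers and positions. HISAT2 2.2.1, StringTie 2.2.1, Trim Galore 0.6.7, featureCounts and GRCm39 are named in the submitters' processing notes and labels. The strand setting is not given in the sources used here. The labels give a read length of 150 bp and the series text 100 bp. Positions in the TPM table are those of GRCm38: 85.8% of 37926 gene starts lie within 1000 bases of GRCm38.p6 RefSeq starts and 3.26% within 1000 bases of GRCm39 starts. Both builds were compared by gene, and coordinates were not converted.

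Genes were kept at 8 or more counts in all and tested with edgeR 4.0.16 (TMM, quasi-likelihood F test, condition alone) in R 4.3.3. Log2 CPM used a prior count of 2. Gene lists were described by counts of calls and medians. Pals1 was matched as Mpp5. The genes and lists were chosen with earlier results of these data known. Named genes were the 10 genes, Pkn2, Ccn1 and Ccn2, the called and the 3 most abundant genes of each pathway list, and the 3 genes most like Ankrd1 and Amotl2 among 14301 with a mean of at least 1 CPM. The methods were tested on simulated data.

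Alternatives were DESeq2 1.42.0, limma-voom (limma 3.58.1), edgeR with the size factors of DESeq2, with filterByExpr or without a filter, limma on log2(TPM + 1) and log2(TPM + 0.1) with a mean of at least 0.1 TPM and on log2(TPM + 1) without that filter, the replicate number as a block, log2 Xist CPM as a covariate, hemoglobin genes left out, and each library left out in turn. Replicate numbers were not taken as pairs. Proteomic data were not analysed here.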

Additional observations from a re-analysis of the deposited data

Results flagged for a closer look

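In 2 of the 22 groups of 4 libraries examined for a library that stands apart (Dixon's criterion, critical value 0.829; the 10 genes and Pkn2, by group), 1 library did, and chance gives about 1 in 20. For Amotl2, cKO replicate 4 was at 137 CPM, and its gap to the nearest cKO library was 0.936 of the range of the group. For Lats1, cKO replicate 3 was at 39.1 CPM, below the other cKO libraries by a gap of 0.938 of the range. Replicate 4 of cKO was also the library with the highest summed endothelial markers (1221 TPM), with cKO 1 near it (1115 TPM). Its epicardial (444 TPM) and erythroid (15039 TPM) sums and its hemoglobin share (0.475% of counts) were the highest too. Its mitochondrial share of counts was the lowest (2.66%). Macrophage markers were highest in cKO 1 (33.3 TPM), and cushion, smooth muscle, cardiomyocyte and hepatic sums were highest in control libraries. The cause was not tested.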

How the results depend on the processing

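The log2 fold change of Pkn2 stayed between −0.86 and −0.80 in all 19 alternatives and passed in each. The number of genes past the threshold, 230, was 867 with DESeq2, 878 with no filter on low counts, 3 on log2(TPM + 1), 10 on log2(TPM + 0.1) and 1 on log2(TPM + 1) without a filter. With single libraries left out it ran from 67 (without control replicate 1) to 744 (without cKO replicate 3). Among the 10 Hippo pathway genes, DESeq2 called 2 and no filter 2 (Tead4 and Lats2 in each), and fits without 1 library called 0 to 1, the 1 being Tead4 without cKO replicate 4. The causes were not tested.

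With the replicate number as a block, 380 genes passed in all and 1 of the 10, Tead4 (adjusted p = 0.0456). Deviations of same-numbered libraries correlated at −0.19, −0.03, 0.01 and −0.14 over 14302 genes, so that the numbers gave no sign of pairing.

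Of 190 estimates for the 10 genes, 174 kept sign and side, 10 changed sign and 6 passed newly. With single libraries left out, Yap1 ran from −0.0169 to 0.0338, Tead3 from −0.0236 to 0.11, Amotl2 from −0.18 to 0.00231, Ankrd1 from −0.20 to 0.0441, Llgl1 from −0.0479 to 0.0116, Ankrd2 from −0.35 to 0.52, Ankrd23 from −0.0669 to 0.16 and Myh7 from −0.0931 to 0.0513. On TPM, Tead1 was 0.18, Llgl1 0.0200 (pseudocount 1) or 0.0204 (pseudocount 0.1), Ywhaz 0.000485 or 0.000486, Ankrd23 −0.0797 or −0.0903 and Ankrd2 −0.0378, and with limma-voom Ankrd2 was −0.0588. Llgl2 and Xirp2 did not pass on TPM. List medians moved by more than the spread in 2 cases, to −0.0073 for cardiomyocyte markers (without control replicate 4) and to −0.82 for hepatic markers (without control replicate 1).

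Limits are the 4 replicates per group and, for Tead4 and Lats2, 423 counts or more per library. Genes with few counts, such as Ankrd2, are limited by depth. Transcript levels do not report phosphorylation or location of YAP and TAZ.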

Other observations

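Other cell types were read from marker lists. Of 10 cushion and fibroblast genes, 9 epicardial, 6 smooth muscle, 11 erythroid and 7 tested hepatic and yolk sac genes, 1, 2, 2, 1 and 4 had an unadjusted p under 0.05 and edgeR and limma-voom called 0, while DESeq2 called 1 cushion, 2 epicardial and 2 hepatic genes, all lower in cKO. With no filter on low counts, 1 cushion, 2 epicardial and 4 hepatic genes were called as lower and 1 erythroid gene as higher. The replicate block called 1 cushion, 2 epicardial and 2 hepatic genes, all as lower. Over all genes tested, 12.8% had an unadjusted p under 0.05 in edgeR. Epicardial markers summed to 287 to 444 TPM in cKO and 340 to 354 TPM in controls, cushion markers to 301 to 364 TPM and 288 to 377 TPM, and smooth muscle markers to 2980 to 3436 TPM and 3142 to 4016 TPM. Erythroid markers summed to 4374 to 15039 TPM in cKO and 4835 to 14127 TPM in controls, and hepatic and yolk sac markers to 14.1 to 23.0 TPM and 15.4 to 51.5 TPM. Hemoglobin made up 0.137% to 0.475% of cKO counts and 0.151% to 0.461% of control counts.

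In promoter windows, the MCAT motif was found in 4 of 12 YAP and TEAD targets with a window (33.3%), beside 16.6% of all genes. It was found in 5 of 9 stress and load genes (55.6%) and in 1 of 7 endothelial markers (14.3%). Counts elsewhere were 2 of 3 smooth muscle, 2 of 5 epicardial and 2 of 6 cushion markers. They were 6 of 17 YAP and TEAD regulators, 3 of 14 polarity and junction genes and 3 of 21 kinase cassette genes. In the macrophage (5), erythroid (8) and hepatic (6) lists 0 had it. Several lists thus exceeded the share of all genes.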
